A study of Homo sapiens with 12 samples.

Results

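The proteasome genes were taken as every gene whose deposited symbol is PSM followed by a letter from A to G and a number. This gave 48 genes of the 58735 in the count table. The 20S core particle was represented by 19 genes (8 PSMA and 11 PSMB), the 19S regulatory particle by 20 (6 PSMC and 14 PSMD), the activators by 4 (PSME), and the chaperones that build the core by 4 (PSMG). The remaining gene was PSMF1, which encodes an inhibitor of the core. All 48 identifiers were found in GENCODE release 44 on GRCh38 under the same symbol.

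The cells were 293T, a line from human embryonic kidney, carrying a doxycycline-inducible 4EBP1-4A in the lentiviral vector LT3REVIR, and transduced cells were sorted on GFP. In 4EBP1-4A the residues T37, T46, S65 and T70 are alanine, so the protein cannot be phosphorylated there and stays bound to the cap-binding factor eIF4E. Cells received DMSO (control) or doxycycline (DOX) at 2 mg/mL, for 12 h by the labels and 2 h by the series text, and both groups then received cycloheximide before lysis. Each group had 3 RNA-seq libraries of total RNA and 3 Ribo-seq libraries of ribosome-protected fragments, and the study calls them biological replicates without saying whether they were separate cultures, so that the p-values measure the spread between these libraries. The study's text also gives a longer treatment for these libraries, and the time could not be settled.

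The proteasome degrades proteins tagged with ubiquitin. Its core is a barrel of stacked rings, in which the alpha subunits form the gate and the beta subunits hold the proteolytic sites. The 19S particle caps the barrel: its base binds ubiquitin and unfolds the substrate with a ring of ATPases, and its lid removes the ubiquitin chain. Subunits are assembled in fixed proportions with the help of dedicated chaperones, and in mammals the transcription factor NRF1 (gene NFE2L1) raises proteasome genes together through antioxidant response elements when proteasome activity falls.

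Between 51519700 and 57824136 RNA-seq reads per library fell on genes with DMSO, and 47862104, 45887231 and 21687906 did in DOX replicates 1, 2 and 3. DOX replicate 3 stood apart: of its counts summed over all rows, 5.94% were on genes and 88.4% were counted as not uniquely aligned. Its Pearson r over log2 levels was 0.962 to 0.979 with the other libraries, against 0.992 to 0.996 among those. Fold changes are therefore given from all 6 libraries and from the 5 that remain without it. EIF4EBP1, the gene of the induced protein, was at 153, 154 and 168 CPM with DMSO and at 257, 279 and 285 with DOX (CPM, the gene's reads in every 1000000 reads on genes, with library sizes scaled by TMM, edgeR's trimmed mean of M values), a log2 fold change of 0.79 ± 0.09 (SE). Even this gene did not pass edgeR's quasi-likelihood test with all 6 libraries (adjusted p = 0.303). Without DOX replicate 3 it did (0.76 ± 0.07, adjusted p = 1.08e-05, same test). All 6 genes listed as typical of the line were expressed, led by VIM. Of these, 5 were higher in every DOX library than in every DMSO library, against 19.7% of all genes tested. Each of the 5 was highest in DOX replicate 3. Genes of leukocytes summed to at most 0.673 CPM and genes of skin cells to at most 5.74, nearly all of it KRT10. The Ribo-seq libraries were shallow, with 210186 to 1002424 reads on genes.

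Promoter sequences of the members were searched for short motifs, none of which was in all of them. RefSeq windows from 250 bases before to 50 bases after a start (GRCh38.p14) were at hand for 42 of the 48 genes, in 51 windows. PSMA7, PSMB1, PSMB6, PSMB7, PSMD4 and PSMG3 had no entry. The core of the antioxidant response element, TGACNNNGC on either strand, was found in 15 of the 51 windows (29.4%) against 13.3% of all 35116 windows, and those 15 windows belonged to 15 genes: 3 of the 20S core, 7 of the 19S particle, 3 activators and 2 chaperones. The stricter form TGACTCAGC, which the core contains, was in none of the members' windows and in 0.561% of all. The following matches, chosen to show each particle, have the core in capitals and are written along the gene.

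PSMA4 (chr15:78540650-78540678, + strand): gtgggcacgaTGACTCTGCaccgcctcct
PSMB3 (chr17:38752627-38752655, + strand): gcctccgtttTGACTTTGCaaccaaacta
PSMC5 (chr17:63827654-63827682, + strand, core on the other strand): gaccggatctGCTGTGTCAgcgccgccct
PSMD3 (chr17:39980760-39980788, + strand): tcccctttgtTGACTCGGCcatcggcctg
PSMD12 (chr17:67366724-67366752, - strand): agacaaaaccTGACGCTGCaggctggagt
PSME1 (chr14:24136098-24136126, + strand): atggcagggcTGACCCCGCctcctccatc
PSMG1 (chr21:39183616-39183644, - strand): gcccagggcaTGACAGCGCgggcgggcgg

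The CCAAT box was in 39.2% of the members' windows and 34.6% of all, and the GC box GGGCGG in 35 of the members' 51 windows (68.6%) and in 15786 of all 35116. A match is a run of letters and not a shown binding site. The members with the core had a median log2 fold change of -0.10 (n = 15) and the members with a window but no core one of -0.18 (n = 24). Without DOX replicate 3 these medians were -0.01 and -0.07.

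In control cells nearly every constitutive subunit was expressed. Levels are compared between genes as RPKM, here CPM divided by the length in kb of the union of a gene's exons. The highest levels were in the beta ring, where PSMB4 was at 102 ± 4.69 RPKM (SD, n = 3) and PSMB3 at 101 ± 2.59, which differed by less than their spread. PSMA7 followed with 91.2 ± 4.27, PSMB1 with 87.9 ± 7.34 and PSMB5 with 86.9 ± 2.54, and PSMA7 and PSMB1, and PSMB1 and PSMB5, did not differ beyond their spread. In the 19S particle the ATPase PSMC3 (53.4 ± 0.083) and the scaffold subunit PSMD2 (53.3 ± 1.26) were highest, again within their spread. The median over the 19 core genes was 29.96 RPKM, against 18.9 over the 20 genes of the 19S particle, 20.7 over the 4 activators and 17.4 over the 4 core chaperones.

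The order depended on the length used. Per kb of the reference transcript in place of the union of exons, the medians were 34.5 for the core, 58.5 for the 19S particle, 39.1 for the activators and 41.4 for the chaperones, so that the 19S particle came before the core. Within the core the ranks hardly moved (Spearman's rho 0.974 over 19 genes), while over the 14 PSMD genes rho was 0.657. PSMG4 was at 3.32 RPKM by the union and at 44.1 by the reference transcript, since its exon union is 10415 bases and its reference transcript 785.

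Some members stood far below the others of their ring. PSMC1, an ATPase of the 19S base, was at 0.903 ± 0.036 RPKM, while the other 5 ATPases lay between 7.79 and 53.4. The annotation has 13 pseudogenes named after PSMC1, more than after any other member, and 4667 of its 6129 exon bases overlap NRDE2 on the other strand. PSMA6 (1.04 ± 0.047) and PSMA2 (1.51 ± 0.19) were lowest among the constitutive alpha subunits, the others being at 13.4 to 91.2, and they have 4 and 3 named pseudogenes and share 14.1% and 17.2% of their exon bases with a gene of the same strand. Only uniquely aligned reads were counted, and the part these overlaps play in the low values was not tested. Of the 48 members, 17 have such pseudogenes, 44 in all.

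**Figure D1:**
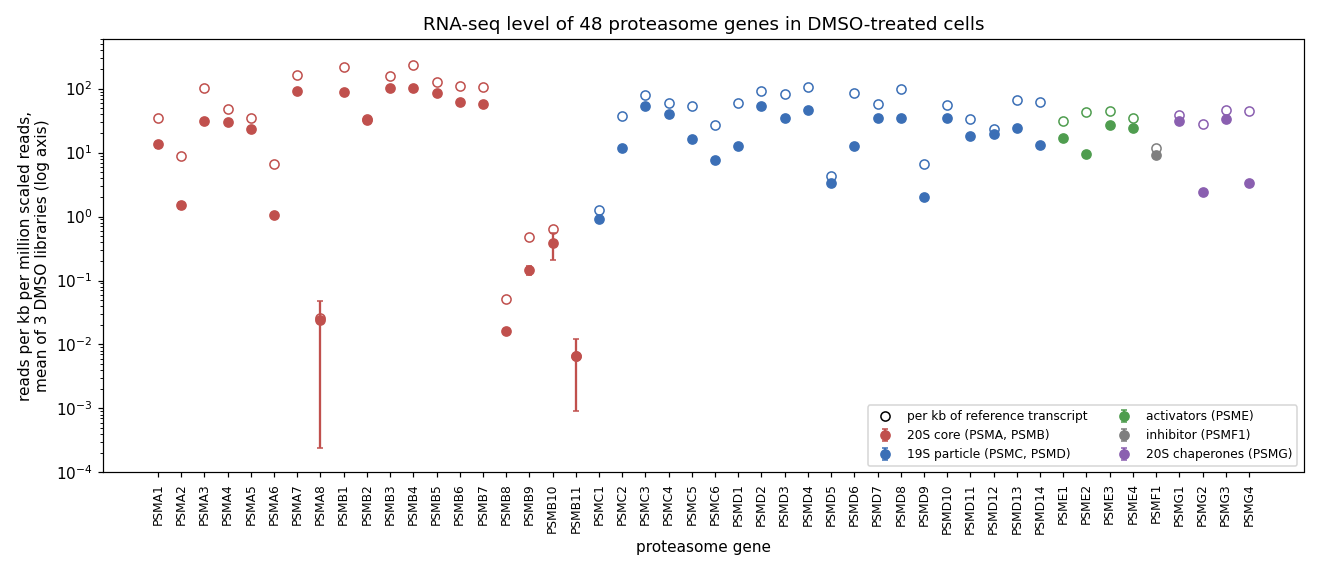
RNA-seq level of each of the 48 proteasome genes in DMSO-treated cells, in RPKM on a log axis. Filled points with bars are the mean ± SD of 3 libraries per kb of exon union (the lower bar of PSMA8, whose SD exceeds its mean, is shortened), open points the mean per kb of reference transcript. PSMB4 is highest by both lengths, and PSMA8, PSMB8, PSMB9, PSMB10 and PSMB11 lie below 1 RPKM by both.

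The catalytic subunits were almost wholly of the standard kind. PSMB5, PSMB6 and PSMB7, which carry the chymotrypsin-like, caspase-like and trypsin-like sites, summed to 214, 200.2 and 208 RPKM with DMSO and to 191, 206 and 160.3 with DOX. Their interferon-inducible counterparts PSMB8, PSMB9 and PSMB10, which replace them in the immunoproteasome, summed to 0.487, 0.404 and 0.734 RPKM with DMSO and to 0.437, 0.644 and 0.753 with DOX. The groups overlapped for both sets, with an exact permutation test p of 0.2 and 0.7 (two-sided, 3 against 3, where 0.1 is the smallest p that can be reached). Without DOX replicate 3 the exact permutation p was 0.4 and 1.0, where 0.2 is the smallest for 2 against 3. PSMB8 had 3 reads in each DMSO library and 3, 6 and 7 in the DOX libraries, which is too few for a fold change. PSMB11, the thymus form, had at most 1 read in any library. PSMA8, the testis counterpart of PSMA7, had at most 5.

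These 3 genes, PSMA8, PSMB8 and PSMB11, had fewer than 10 reads in too many libraries to be tested, and the other 45 members entered. With all 6 libraries, edgeR's quasi-likelihood test, adjusted by Benjamini-Hochberg, called 0 of these 45 (background: 0.0% of 20552 genes tested). DESeq2 and edgeR's likelihood ratio test, applied to the same libraries, also called 0 of the members. At an unadjusted p under 0.05, 2 members were lower (PSMA2 and PSMD10) and 2 higher (PSMC5 and PSMD4), 4.44% in each direction, against 4.3% and 10.7% of all genes. On counts simulated with each gene's fitted dispersion, the test recovered 2 of 200 genes changed 1.5-fold and 150 of 200 changed 2-fold. It also made 4 and 11 false calls. That dispersion was the same in every simulated library, whereas in the data DOX replicate 3 stood apart. Changes of up to 1.5-fold were thus mostly not detectable at such dispersions.

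The members' median log2 fold change was -0.14, against 0.0029 over all genes tested. In the 20S core 12 of 16 fold changes were below 0, against 10219 of 20552 genes tested, with a median of -0.17. The genes of a particle share the same 6 libraries, so such counts are a description. In the 19S particle 10 of 20 were below 0, with a median of 0.01 (-0.03 when TMM was computed before the filter or no filter was used, 0.11 with library totals). The core chaperones (median 0.06) and the activators (-0.08, but 0.01 with library totals) had 2 of 4 on each side. In bulk RNA, fewer cells with a transcript and less of it per cell cannot be told apart.

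Without DOX replicate 3, the same test called 2 members lower and 2 higher of 45, 4.44% each, against a background of 3.29% lower and 3.76% higher of 20459 genes. These shares are near the background. The count depended on which libraries were kept: leaving out DMSO replicate 1 as well gave 1 lower and 1 higher, DMSO replicate 2 gave 6 and 2, DMSO replicate 3 gave 1 and 0, DOX replicate 1 gave 3 and 2, and DOX replicate 2 gave 0 in both directions. The members called were PSMA2 and PSMD10 (lower) and PSMC5 and PSMD4 (higher). The simulation of these 5 libraries recovered 170 of 200 genes changed 1.5-fold, with 13 false calls. The median was -0.04 over the members, -0.09 over the core and 0.02 over the 19S particle, and 15 of 16 core genes were below 0, against 10252 of 20459 genes tested. These genes share the same 5 libraries, so the count is a description and not a test. Relative to the DMSO mean, the core's median by library was 0.06, -0.08 and 0.01 with DMSO. In DOX replicates 1 and 2 it was -0.12 and -0.06, so the groups overlapped.

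**Figure D2:**
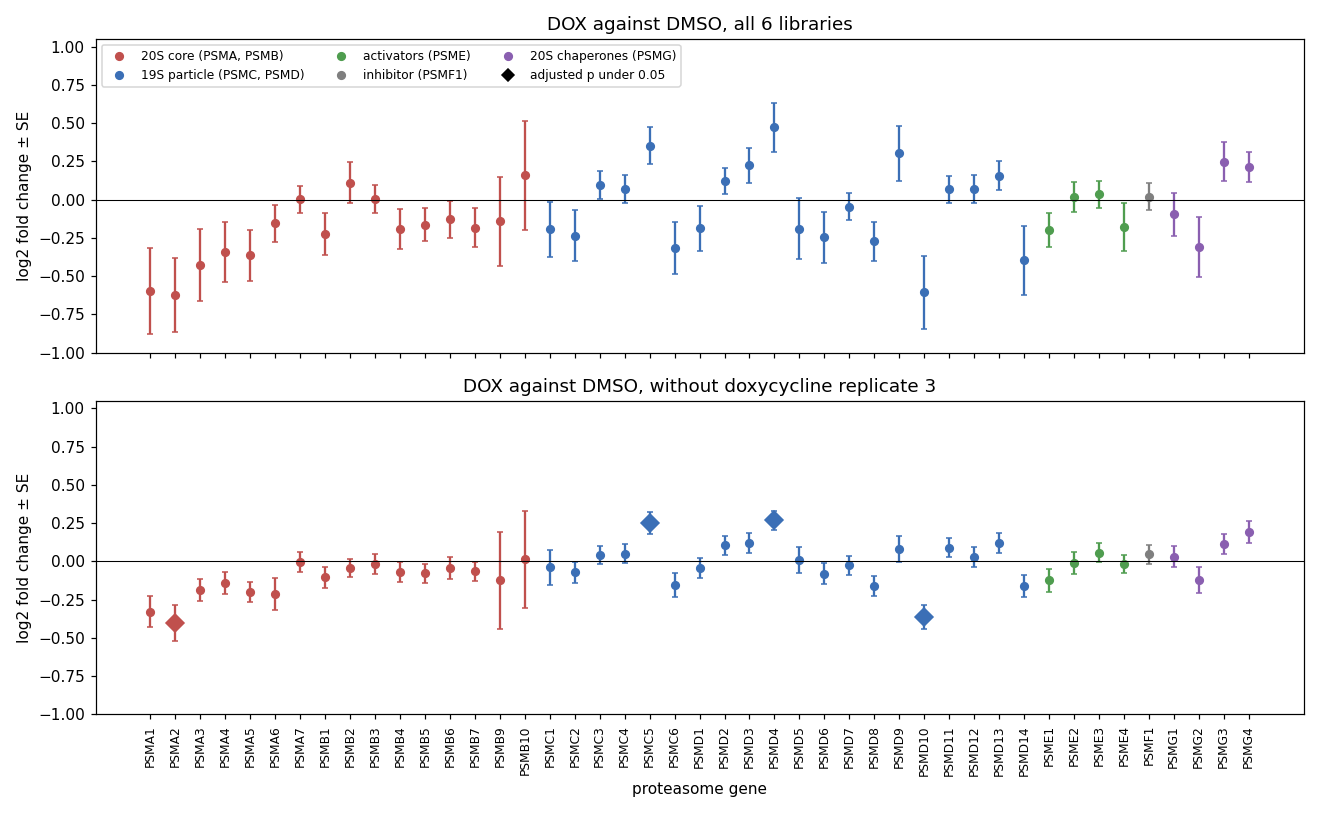
Fitted log2 fold change of DOX against DMSO for the 45 tested members, with all 6 libraries (top) and without DOX replicate 3 (bottom). Bars are ± SE, colours mark the particle, and diamonds mark an adjusted p under 0.05 (edgeR quasi-likelihood test), of which the top panel has 0 and the bottom panel 4. Most PSMA and PSMB genes lie at or below 0, and the spread among PSMC and PSMD genes runs from -0.61 (PSMD10) to 0.47 (PSMD4) with all libraries.

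PSMD10 encodes gankyrin, a chaperone that holds an ATPase of the base before the 19S particle is complete. It lies on chrX:108084207-108091549 on the - strand. Its level was 89.9, 75.5 and 82.6 CPM with DMSO and 67.4, 61.0 and 34.1 with DOX. All DOX libraries were below all DMSO libraries, and DOX replicate 3 was the lowest. The log2 fold change was -0.61 ± 0.24 (SE) with 6 libraries and -0.37 ± 0.08 without DOX replicate 3, where the adjusted p was 0.0158 (edgeR quasi-likelihood test). The call was kept in 10 of 11 further fits of those 5 libraries, over which its adjusted p ran from 0.000184 to 0.292. The promoter window holds a CCAAT box on the other strand, ggaaggccggtgATTGGtgaagctctaac (chrX:108091602-108091630).

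PSMD4 encodes a ubiquitin receptor of the 19S base, at chr1:151254709-151267479 on the + strand. It was at 140.4, 146 and 138 CPM with DMSO and at 165, 176 and 247 with DOX. The groups did not overlap and DOX replicate 3 was the highest. The log2 fold change was 0.47 ± 0.16 with 6 libraries and 0.27 ± 0.06 without DOX replicate 3 (adjusted p = 0.021, edgeR), and 9 of 11 further fits of the 5 libraries kept the call, with adjusted p from 0.00154 to 0.354.

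PSMC5, an ATPase of the base at chr17:63827152-63832026 on the + strand, was at 65.1, 74.7 and 71.7 CPM with DMSO and at 82.5, 85.3 and 102 with DOX. Again every DOX library was above every DMSO library. The log2 fold change was 0.35 ± 0.12 with 6 libraries and 0.25 ± 0.07 without DOX replicate 3 (adjusted p = 0.0378, edgeR), called in 8 of 11 further fits with adjusted p from 0.00183 to 0.378. Its exons overlap FTSJ3 on the other strand by 655 bases, and no source used here says if reads were counted by strand.

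PSMA2, an alpha-ring subunit at chr7:42916828-42932185 on the - strand, was at 13.2, 10.9 and 13.9 CPM with DMSO and at 10.7, 8.50 and 5.29 with DOX. The highest DOX library was just below the lowest DMSO library. The log2 fold change was -0.62 ± 0.24 with 6 libraries, the lowest in the core, and -0.40 ± 0.12 without DOX replicate 3 (adjusted p = 0.0434, edgeR). This call was kept in 6 of 11 further fits (adjusted p from 0.00163 to 0.538), and none of the 4 calls was kept when DOX replicate 2 was left out as well, which leaves DOX replicate 1 alone in its group. A CCAAT box lies in its promoter window: tctgactctcctCCAATcatagagagtaa (chr7:42932242-42932270).

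**Figure D3:**
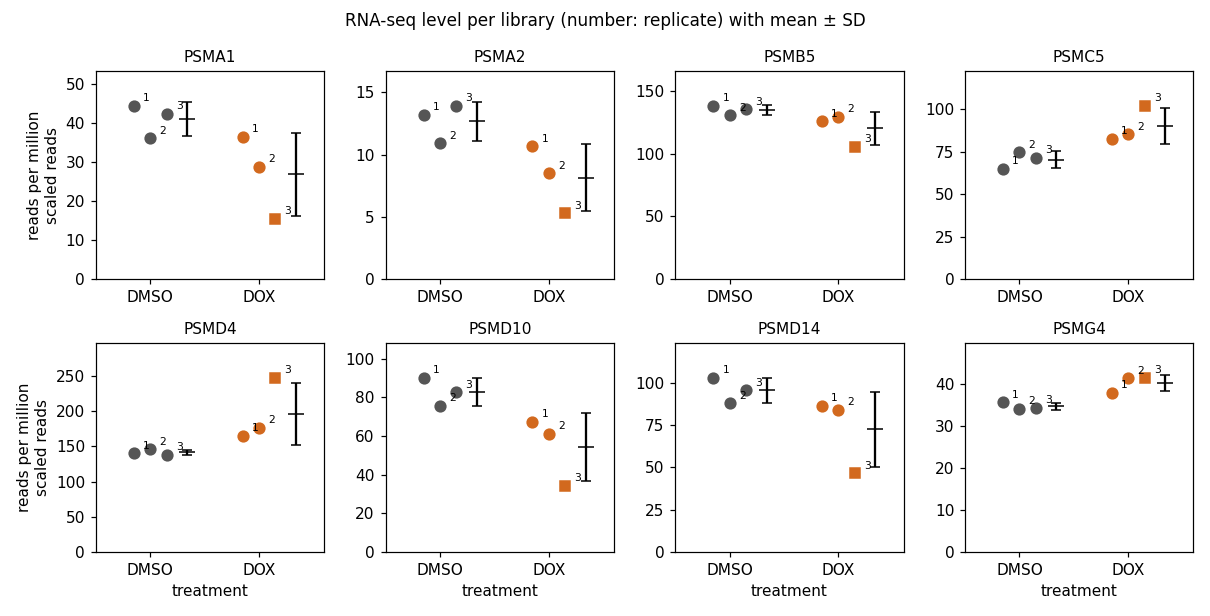
RNA-seq level of 8 members in each of the 6 libraries, in CPM, with the replicate number beside each point and the mean ± SD of the group beside the points. DOX replicate 3 is drawn as a square. It is the lowest DOX library in PSMA1, PSMA2, PSMB5, PSMD10 and PSMD14 and the highest in PSMC5 and PSMD4.

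The alpha ring, whose amino-terminal tails gate the barrel, had a median log2 fold change of -0.37 over 7 genes, and of -0.20 without DOX replicate 3, below those of the other families in both fits (with offsets for GC content the beta ring was lower). PSMA1 was at 44.4, 36.0 and 42.2 CPM with DMSO and at 36.4, 28.8 and 15.5 with DOX. Its DOX replicate 1 lay above DMSO replicate 2, so the groups overlapped. Its log2 fold change of -0.33 ± 0.10 without DOX replicate 3 just missed the threshold (adjusted p = 0.0515, edgeR). PSMA3 and PSMA5 had all DOX libraries below all DMSO libraries and log2 fold changes of -0.43 ± 0.23 and -0.37 ± 0.16 with 6 libraries, and of -0.18 ± 0.07 and -0.20 ± 0.07 with 5. PSMA4 overlapped between groups, at -0.34 ± 0.19 with 6 libraries and -0.14 ± 0.07 with 5. So did PSMA6 with 6 libraries (-0.16 ± 0.12, and -0.21 ± 0.10 with 5). The margin of PSMA3 was small, 89.1 CPM in DOX replicate 1 against 89.4 in DMSO replicate 2. With offsets for GC content PSMA3 was at -0.17 with 6 libraries and -0.06 with 5, and PSMA5 at 0.02 and -0.02. PSMA4 was then at -0.12 and -0.04, and PSMA6 at 0.01 and -0.15. PSMA1 was at -0.39 and -0.23, and PSMA2 at -0.32 and -0.26. PSMA7, at 167, 152 and 161 CPM with DMSO and 162, 157 and 161 with DOX, had a fold change near 1 (log2 0.0012 ± 0.09, and -0.0024 ± 0.06 with 5 libraries), and its sign changed in 8 of 15 alternative settings.

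Summed over the 8 alpha genes, the level was 202, 179 and 194 RPKM with DMSO and 184, 174 and 143 with DOX. The groups overlapped, and the exact permutation test gave p = 0.2 (two-sided, and 0.4 without DOX replicate 3). The 11 beta genes summed to 552, 511 and 530.3 RPKM with DMSO and 493, 525 and 444 with DOX, likewise overlapping (exact permutation p = 0.2, and 0.4 without DOX replicate 3). All 19 core genes summed to 754, 690 and 725 RPKM with DMSO and 677, 699 and 587 with DOX, with overlap and the same p-values. For summed CPM of the core the groups did not overlap (exact permutation p = 0.1, and 0.2 without DOX replicate 3).

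In the beta ring the median log2 fold change was -0.14 over 9 genes, and -0.07 without DOX replicate 3. PSMB5, the target of the proteasome inhibitor bortezomib, was at 138, 130.4 and 135 CPM with DMSO and at 126, 129 and 105 with DOX. It was the only one of the 9 whose DOX libraries were all below its DMSO libraries, by a small margin, with a log2 fold change of -0.16 ± 0.11 (adjusted p = 0.359, edgeR) and of -0.08 ± 0.06 with 5 libraries. PSMB6 was at 93.5, 85.8 and 89.7 with DMSO and 80.3, 93.8 and 72.0 with DOX, and PSMB7 at 107, 101 and 104 and at 96.6, 103 and 76.0. Both overlapped between the groups, with log2 fold changes of -0.13 ± 0.12 and -0.18 ± 0.13, and of -0.04 ± 0.07 and -0.07 ± 0.06 with 5 libraries.

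PSMB10 had the highest fitted value in the core, 0.16 ± 0.36 (0.01 ± 0.32 with 5 libraries), from 0.486, 0.430 and 0.936 CPM with DMSO and 0.527, 0.706 and 0.882 with DOX. PSMB9 was at 0.576, 0.411 and 0.468 and at 0.316, 0.578 and 0.420 (-0.14 ± 0.29, and -0.12 ± 0.32 with 5 libraries). With so few reads the SE of both exceeded the change. PSMB2 was the beta gene in which DOX replicate 3 departed upward, at 192 CPM against 142 to 150.2 in the other 5 libraries.

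The 19S genes lay on both sides of 0. The base, taken as PSMC1 to PSMC6, PSMD1, PSMD2 and PSMD4, had a median log2 fold change of 0.07 over 9 genes, and the lid, taken as PSMD3, PSMD6 to PSMD8 and PSMD11 to PSMD14, one of 0.01 over 8. With 5 libraries these medians were 0.04 and 0.0013. With offsets for GC content the base was at 0.0016 with 6 libraries and 0.04 with 5, and the lid at 0.0084 and -0.0014. The sums that follow carry no such offsets. Over the 20 genes of the 19S particle the summed level was 483, 475 and 473 RPKM with DMSO and 481, 495 and 498 with DOX. The groups overlapped (exact permutation p = 0.2, and 0.4 without DOX replicate 3). Sums were planned by particle, and the split into base, lid and base chaperones was not. Summed over the 9 base genes the level was 243, 245 and 242 RPKM with DMSO and 256, 267 and 291 with DOX. All DOX sums were above all DMSO sums, with an exact permutation p of 0.1, the smallest 3 against 3 can give. Without DOX replicate 3 it was 0.2, the smallest for 2 against 3. The log2 ratio of the group means was 0.16, and 0.10 without DOX replicate 3. PSMC5 and PSMD4 are among these 9 genes. The same p-values were reached in the other direction by the sum of the 3 base chaperones, of which PSMD10 made up the most. That sum was 43.1, 37.0 and 39.9 RPKM with DMSO and 33.8, 31.0 and 19.5 with DOX. Its log2 ratio was -0.51 (-0.30 without DOX replicate 3). The 8 lid genes summed to 197, 192 and 191 RPKM and to 192, 196 and 187, with overlap (exact permutation p = 0.6, and 1.0 without DOX replicate 3).

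Within the base, PSMD2, a large scaffold of the particle, was at 259, 271 and 262 CPM with DMSO and 274, 295 and 293 with DOX, a log2 fold change of 0.12 ± 0.09 (0.11 ± 0.06 with 5 libraries). PSMD1, the other large scaffold, was at 212, 193 and 193 and at 198, 189.7 and 139 (-0.19 ± 0.15, and -0.04 ± 0.06 with 5 libraries). The first did not overlap between the groups and the second did, and neither passed the test (adjusted p = 0.381 and 0.42, edgeR).

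In the lid, PSMD14, the deubiquitinase that cuts the chain off the substrate, was at 103, 88.0 and 95.8 CPM with DMSO and at 86.7, 84.2 and 46.7 with DOX. The groups did not overlap, but replicates 1 and 2 of DOX lay close under the lowest DMSO library. Its log2 fold change was -0.40 ± 0.23, and -0.16 ± 0.07 without DOX replicate 3 (adjusted p = 0.157, edgeR). PSMD8 was also lower in every DOX library (-0.27 ± 0.13, and -0.16 ± 0.06 with 5 libraries), whereas PSMD3, PSMD11 and PSMD13 were higher in every one, with log2 fold changes of 0.22, 0.07 and 0.16, and of 0.12, 0.09 and 0.12 with 5 libraries. None of these passed the test. With offsets for GC content PSMD3 was at -0.06 with 6 libraries and -0.02 with 5. PSMD11 was then at 0.13 and 0.10, PSMD13 at 0.09 in both, PSMD8 at -0.49 and -0.28, and PSMD14 at -0.22 and -0.08.

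The 3 chaperones of the base differed from one another. PSMD10 is described above. PSMD5 was at 15.05, 14.4 and 14.8 CPM with DMSO and at 14.9, 14.7 and 8.90 with DOX, where only DOX replicate 3 departed (-0.19 ± 0.20, and 0.01 ± 0.08 without it). PSMD9 was at 17.7, 19.004 and 17.0 and at 19.01, 18.9 and 28.6, with DOX replicate 3 departing upward (0.30 ± 0.18, and 0.08 ± 0.08 without it).

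The activators open the core without ubiquitin. PSME1 and PSME2, which form the interferon-inducible ring PA28 alpha-beta, were at 30.2, 29.1 and 30.6 and at 35.3, 33.6 and 33.2 CPM with DMSO. With DOX they were at 27.5, 27.5 and 23.1 and at 33.6, 34.2 and 35.7. PSME1 was lower in every DOX library (log2 fold change -0.20 ± 0.11, adjusted p = 0.313, edgeR, and -0.12 ± 0.07 with 5 libraries) and PSME2, its partner in the ring, was not (0.02 ± 0.10, and -0.0085 ± 0.07 with 5). PSME3, the nuclear PA28 gamma, was at 137, 141 and 143 with DMSO and 144, 148 and 139 with DOX (0.03 ± 0.09, and 0.06 ± 0.06 with 5 libraries). PSME4, or PA200, was at 256, 259 and 253 and at 254, 251 and 172 (-0.18 ± 0.16), where DOX replicates 1 and 2 were level with DMSO (-0.02 ± 0.06 with 5 libraries). Summed over the 4 activators the level was 78.1, 78.1 and 78.6 RPKM with DMSO and 77.3, 77.9 and 66.4 with DOX, with an exact permutation p of 0.1 and a log2 ratio of -0.08 that was -0.01 without DOX replicate 3. The exact permutation p was 0.2 per kb of reference transcript and 0.5 for summed CPM, so it depended on the unit. PSMF1, the inhibitor PI31, was at 94.1, 97.1 and 95.9 and at 97.7, 99.8 and 92.9 (0.02 ± 0.09, and 0.05 ± 0.06 with 5 libraries).

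The core chaperones work in pairs. PSMG1 and PSMG2 pair to line up the alpha ring, and PSMG3 and PSMG4 form another pair that acts on it. PSMG1 was at 71.1, 63.6 and 69.0 CPM with DMSO and 72.8, 66.0 and 51.4 with DOX (-0.10 ± 0.14, and 0.03 ± 0.07 with 5 libraries), and PSMG2 at 32.4, 27.2 and 30.2 and at 28.8, 26.1 and 17.2 (-0.31 ± 0.19, and -0.12 ± 0.09). PSMG3 was at 64.8, 67.5 and 65.5 and at 69.8, 72.7 and 92.7 (0.25 ± 0.13, and 0.11 ± 0.06 with 5 libraries), and PSMG4 at 35.5, 34.1 and 34.3 and at 37.8, 41.3 and 41.3 (0.21 ± 0.10, and 0.19 ± 0.07). Summed over the 4 genes the level was 71.9, 69.2 and 71.0 RPKM with DMSO and 75.2, 73.6 and 76.2 with DOX (exact permutation p = 0.1, log2 ratio 0.08, and 0.07 without DOX replicate 3). The exact permutation p was 0.1 per kb of reference transcript and 0.2 for summed CPM. Every DOX library was above every DMSO library for PSMG3 and PSMG4, and the groups overlapped for PSMG1 and PSMG2. With offsets for GC content PSMG3 was at -0.04 with 6 libraries and -0.02 with 5, and PSMG4 at 0.07 and 0.11. PSMG1 was then at 0.14 in both and PSMG2 at -0.08 and -0.02. None of the 4 passed the test, and the lowest adjusted p was 0.303 with 6 libraries and 0.108 with 5 (PSMG4, edgeR).

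Counting over all members, 8 of 45 (17.8%) had every DOX library below every DMSO library, against 18.9% of all genes tested. Another 9 had every DOX library above, against 19.7%. The members were thus separated about as often as genes at large in both directions. By particle there were 4 lower and 0 higher in the core, 3 lower and 7 higher in the 19S particle, 1 lower and 0 higher among activators, and 0 lower and 2 higher among core chaperones. Without DOX replicate 3 the counts were 9 lower (21.2% of all genes tested) and 11 higher, or 24.4% (22.2% of all).

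The departure of DOX replicate 3 followed the GC content of the members. Its log2 level minus the mean of DOX replicates 1 and 2 had a median of -0.57 over the 17 tested members under 45% GC, of -0.04 over the 22 from 45% up to 55%, and of 0.22 over the 6 from 55%. Over all genes tested the medians of the same classes were -0.42, 0.02 and 0.43. Across the 45 members Pearson's r of this difference with the GC content of the reference transcript was 0.649, and across 20396 genes it was 0.681. These correlations are across genes that share 3 libraries and are given as a description. Of the 17 members under 45%, PSMB2 (44.2% GC, 0.42), PSMA6 (43.8%, 0.16) and PSMD12 (37.5%, 0.12) went against the trend with values above 0, and of the 6 from 55%, PSMD8 (57.4%, -0.38) and PSMB6 (55.2%, -0.27) did with values below 0.

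The trend did not end with that library. Without DOX replicate 3, r between GC content and the log2 fold change was 0.535 across the members and 0.455 across 20305 genes. The lower members PSMA2 and PSMD10 have 39.5% and 40.3% GC, and the higher members PSMC5 and PSMD4 52.2% and 53.0%. When the counts were fitted with offsets for GC content, an alternative added after seeing the data, PSMD10 (log2 fold change -0.24, adjusted p = 0.0219, edgeR), PSMC5 (0.18, 0.0487) and PSMD4 (0.19, 0.0242) were still called without DOX replicate 3. PSMA2 was not (-0.26, adjusted p = 0.159), and PSMD8 was (-0.28, adjusted p = 0.0262). With these offsets and all 6 libraries the core was at a median of -0.20 and the 19S particle at 0.04, so the medians of these particles lay no closer together than without them. The alpha ring moved up to -0.12 and the beta ring down to -0.21.

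**Figure D4:**
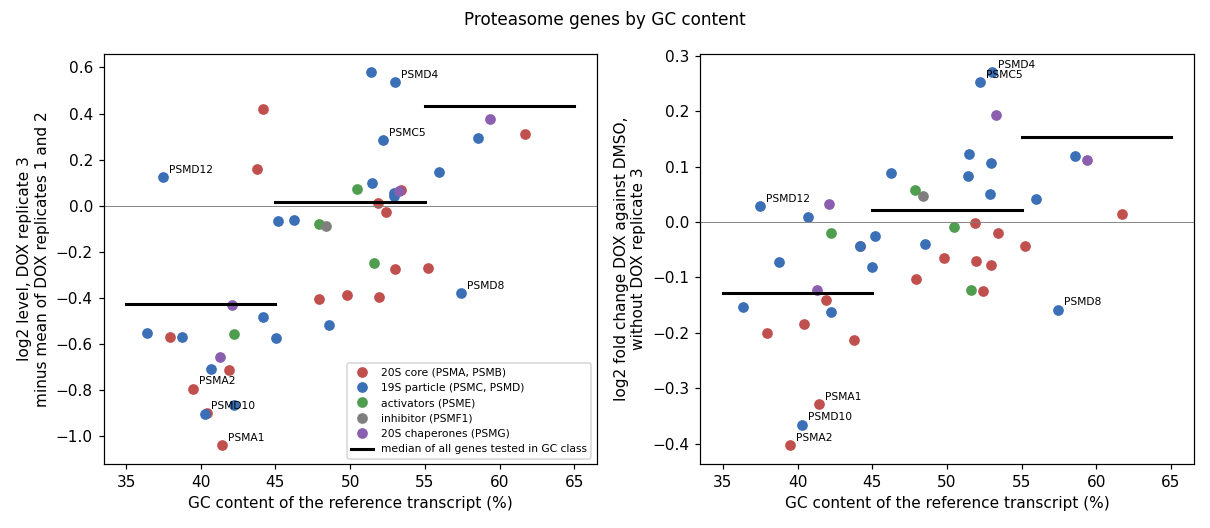
Tested members by the GC content of their reference transcript (x axis, percent), against the log2 level of DOX replicate 3 minus the mean of DOX replicates 1 and 2 (left) and the log2 fold change without DOX replicate 3 (right). Points are genes coloured by particle, and black lines are medians of all genes tested under 45%, from 45% up to 55% and from 55% GC (the outer lines are drawn to 35% and 65%). Members of low GC lie lower in both panels, and PSMD12 and PSMD8, named in the plot, are among the members off the trend.

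Genes that work with the proteasome but carry other symbols were read from 4 lists of 46 genes, all of which entered the test. With all 6 libraries, 0 of the 46 were called (edgeR quasi-likelihood test; DESeq2 and the likelihood ratio test also called 0). Without DOX replicate 3, 1 was called lower and 1 higher (3.29% and 3.76% of all genes tested, so no more than the background), both among the 13 proteasome-associated genes, and 0 among the 7 of the NRF1 pathway, the 14 of ubiquitin and delivery and the 12 of antigen presentation and interferon response. The median log2 fold changes of these lists were -0.18, 0.15, -0.03 and 0.08 with 6 libraries and -0.06, 0.07, -0.0093 and 0.04 with 5.

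The higher gene was ADRM1, another ubiquitin receptor of the 19S particle. It was at 91.8, 98.7 and 90.3 CPM with DMSO and at 105, 121 and 167 with DOX, a log2 fold change of 0.48 ± 0.17 with 6 libraries and 0.27 ± 0.07 without DOX replicate 3 (adjusted p = 0.03, edgeR). The call was kept in 7 of 11 further fits of the 5 libraries (adjusted p from 0.00195 to 0.48), and with offsets for GC content the value from 6 libraries was 0.07. The lower gene was ZFAND5, a proteasome-binding zinc finger protein, at -0.24 ± 0.07 (adjusted p = 0.045, edgeR), named here because the count is 1, and its call was kept in 6 of 11 further fits (adjusted p from 0.00152 to 0.523). TXNL1, a thioredoxin bound to the 19S particle, had the lowest value of its list with 6 libraries (-0.51 ± 0.26, and -0.25 ± 0.08 with 5), at 40.3, 35.7 and 41.0 CPM with DMSO and 34.7, 31.0 and 16.2 with DOX. SEM1, the smallest lid subunit, was at 34.4, 30.4 and 31.0 and at 28.2, 25.4 and 14.1 (-0.49 ± 0.24, and -0.25 ± 0.08 with 5 libraries). POMP, which matures the core, was at 63.4, 57.3 and 56.5 and at 54.7, 50.5 and 38.9 (-0.30 ± 0.14, and -0.17 ± 0.07 with 5 libraries). Every DOX library was below every DMSO library for TXNL1, SEM1 and POMP, without a call, a separation that 18.9% of all genes tested had. The sign of POMP (33.1% GC) changed in 1 alternative setting, the offsets for GC content, where its log2 fold change was 0.20. TXNL1 and SEM1 kept their sign in every setting.

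NFE2L1 was at 111, 123 and 117 CPM with DMSO and 116, 136 and 183 with DOX (log2 fold change 0.31 ± 0.17, and 0.11 ± 0.07 without DOX replicate 3). The groups overlapped. In its list MAFK, a small Maf partner, was highest (0.41 ± 0.22, and 0.13 ± 0.10 with 5 libraries) and NFE2L2, the gene of NRF2, lowest (-0.43 ± 0.22, and -0.20 ± 0.07). Among the ubiquitin genes the extremes were NPLOC4, a cofactor of the segregase VCP (0.27 ± 0.12, and 0.15 ± 0.06 with 5 libraries), and RPS27A, a ubiquitin fused to a ribosomal protein (-0.45 ± 0.20, and -0.25 ± 0.08). Among the antigen presentation genes they were NLRC5, an activator of MHC class I genes (0.49 ± 0.14, and 0.41 ± 0.14 with 5 libraries), and B2M, the light chain of MHC class I (-0.36 ± 0.18, and -0.18 ± 0.07). None of these passed the test in either fit.

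Translation of the members could hardly be read. The 48 genes had 176 Ribo-seq reads over the 6 libraries, against 1246600 RNA-seq reads. No Ribo-seq read fell on 22 of them, 23 had 1 to 9 reads and 3 had at least 10. By library the members had 83, 46 and 17 reads with DMSO and 17, 5 and 8 with DOX.

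These reads came in clumps. PSMG2 had 81 of its 84 reads in DMSO replicate 1, where it made up nearly all member reads, 3 in DMSO replicate 3 and 0 in the other 4 libraries. PSMA8 had 14 reads and PSMB5 10, all in DMSO replicate 2, although PSMA8 had only 12 RNA-seq reads in 6 libraries. PSMB1 had 7 of its 8 reads in DOX replicate 1, and PSMD4 5 of its 6 in DOX replicate 3. A count of 0 in a library allows up to 3 reads, which is 2.99 to 14.3 CPM at these depths (unscaled).

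The members' share of Ribo-seq reads was 0.0395%, 0.00641% and 0.0017% with DMSO (exact 95% binomial interval of the first 0.0315% to 0.0489%, for counting error only) and 0.00192%, 0.000952% and 0.00267% with DOX. The groups overlapped, and the exact permutation test gave p = 0.3. Without PSMG2 the means were 0.00292% with DMSO and 0.00185% with DOX (exact permutation p = 0.9). In RNA-seq the members took 0.435% to 0.463%, more than in any Ribo-seq library (all shares are of reads on genes). The reason for the low share in Ribo-seq was not tested.

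Translation efficiency, the change of Ribo-seq relative to RNA-seq, was tested as the interaction of assay and treatment. Of 1334 genes with enough reads, edgeR's quasi-likelihood test called 2 (0.15%), both lower, and at an unadjusted p under 0.05 191 were lower and 97 higher. Only 3 members entered (PSMA8, PSMB5 and PSMG2) and 0 were called, with adjusted p of 0.354, 0.242 and 0.211. All 3 have 0 Ribo-seq reads in every DOX library and entered through their DMSO reads alone, which fixes the direction, so no fold change is given and nothing is read from their p-values. In a simulation with the dispersion set to 0.05 the test recovered 186 of 200 genes changed 8-fold. The members that entered were very uneven between replicates. In the DMSO libraries PSMG2 had 81, 0 and 3 reads, PSMA8 0, 14 and 0, and PSMB5 0, 10 and 0. The recovery at that setting therefore does not show how often the test would find such a change at the spread of these libraries. For 45 of the 48 members no change in translation could be tested with so few reads on them.

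**Figure D5:**
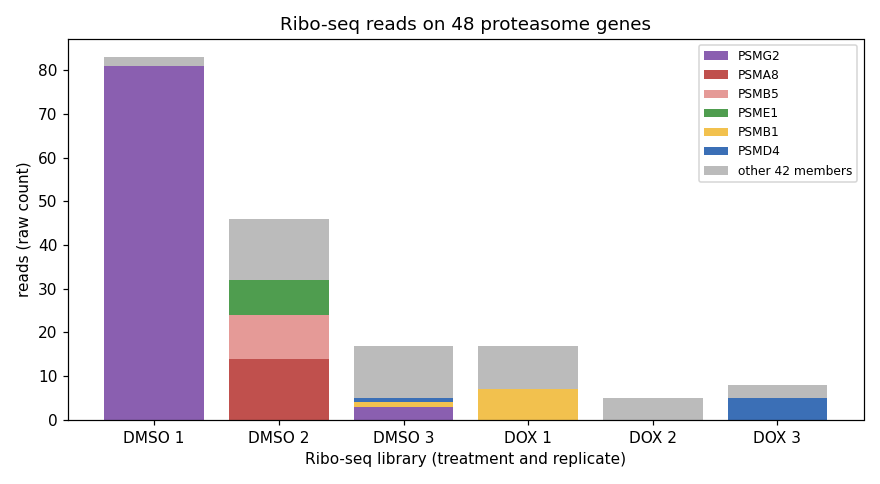
Ribo-seq reads (raw counts) on the 48 proteasome genes in each library, stacked by gene. The bar of DMSO replicate 1 is almost wholly PSMG2 (81 of 83 reads), that of DMSO replicate 2 holds the reads of PSMA8, PSMB5 and PSME1, and the DOX bars reach at most 17 reads.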

How the data were processed

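RNA-seq and Ribo-seq libraries of 1 cell line were analysed, 3 per assay and treatment (12 libraries), grouped by the labels. Values are counts as deposited: the authors cut off the linker, removed ribosomal RNA reads, aligned the rest with STAR to GRCh38 (the labels list GRCh37 and Ensembl 75) and counted uniquely aligned reads on exons. Strand use is not stated in the sources used here. From the deposited TE table, the authors' ratios, log2 values and p-values were not used. Rows naming no gene (69.2% to 94.1% of the summed RNA-seq and 97.1% to 99.1% of the summed Ribo-seq counts) were left out.

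Levels were scaled by TMM after filtering (at least 10 reads in at least 3 libraries) and tested with edgeR 4.0.16 (limma 3.58.1, R 4.3.3), quasi-likelihood F-test, Benjamini-Hochberg at 0.05. TE genes needed 10 reads per assay. Sums were compared by exact permutation, two-sided. Alternatives were DESeq2 1.42.0, its size factors, library totals, no filter, at least 60 reads, the likelihood ratio test, a replicate block and leaving out each library, and, added after seeing the data, TMM before the filter and offsets over 20 GC bins. Tests were tried on simulated counts with 200 changed genes. Lengths, GC content and coordinates came from GENCODE 44, promoters from RefSeq (GRCh38.p14), with Python 3.11.15, numpy 2.4.6, scipy 1.17.1, pandas 2.3.3 and matplotlib 3.10.9.

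Named genes were the catalytic subunits and their inducible forms, PSMA7, PSMA8, PSMC5, PSMD1, PSMD2, PSMD4, PSMD14, the chaperones, activators and PSMF1, POMP, SEM1, ADRM1, NFE2L1, EIF4EBP1, and the highest and lowest fold change of each particle and list. Other members are named where a count rests on them. The members, lists and rules were chosen with earlier results of these data known.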

Additional observations from a re-analysis of the deposited data

How the results depend on the processing

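Counts of called genes, 2 summed levels, the sign of the 19S median and the order of the particles by level per length depended on the processing. With all 6 RNA-seq libraries 0 genes were called. DESeq2 called 2 lower and 1 higher, the likelihood ratio test 8 and 4, and the other settings that kept 6 libraries called 0, with 0 members in each. Leaving out each RNA-seq library gave 0 to 673 genes lower and 0 to 769 higher, 0 to 2 members and 0 to 1 companion genes in each direction, and the calls came only without DOX replicate 3.

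Starting from the 5 libraries without DOX replicate 3 (2 members lower, 2 higher), DESeq2 called 1054 genes lower and 4 members lower. GC offsets gave 377 genes lower and 386 higher, and library totals 339 lower and 1442 higher with 1 member lower. Leaving out a further library gave 7 to 1549 genes lower and 2 to 1483 higher, with 0 to 6 members lower and 0 to 2 higher. Without DMSO replicate 1 these were 222 and 227 genes, without DMSO replicate 2 they were 1471 and 1483, without DMSO replicate 3 they were 311 and 445, without DOX replicate 1 they were 1549 and 1376, and without DOX replicate 2, where the lone DOX sample is assumed to vary like the other group, 7 and 2.

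Same-numbered libraries did not deviate together (correlations 0.252, -0.195 and 0.024), so the numbers were not taken as pairs. With a replicate block the 6 libraries gave 0 calls, and the 5 libraries 2220 genes lower, 2121 higher and 9 members lower. For TE the block gave 0 genes.

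The 19S median of 0.0106 was 0.0375 with GC offsets, -0.0302 with TMM before the filter, -0.0302 without a filter and 0.1094 with library totals. Library totals also moved the median of the activators to 0.0129 and of the chaperones to 0.1549, and turned the log2 ratio of summed levels to 0.0393 for all members and 0.0127 for the activators. Library totals shift all genes of a library alike, so these turns restate the scaling and say nothing of these genes in particular. Over the libraries left out in turn the core's median stayed between -0.28 and -0.09. The lengths used moved the medians per length to 34.5, 58.5, 39.1 and 41.4 RPKM, as given above. Of 36 named genes, 24 kept their sign in every setting.

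For TE, the likelihood ratio test called 131 genes lower and 85 higher, with 1 member (PSMG2, whose direction its DMSO reads fix), library totals 1 lower, and the fits without 1 replicate 0 to 1 in each direction. The few reads on the members limit their Ribo-seq values, and the spread that DOX replicate 3 adds limits those of RNA-seq.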
